A study of Papio anubis with 8 samples.

Results

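The core genes of the circadian clock were followed in bulk RNA-seq of the fetal baboon hippocampus: the activator subunits CLOCK and NPAS2, the repressors PER1, PER2, PER3, CRY1 and CRY2, the nuclear receptors NR1D1 and NR1D2, and the output factor DBP. They were found by symbol in the deposited table, 10 genes of 37053, and all 10 passed the filter on low counts that 16874 genes passed. For each member the symbol, start and end in the table equalled those of RefSeq's annotation of Panubis1.0, and coordinates below are on that assembly. Estimated counts of the members ran from 837 to 18130 per library.

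The study concerned fetuses of olive baboon (Papio anubis) mothers that differed in adiposity and in leptin, the hormone secreted by fat tissue. Total RNA of the hippocampus at 0.9 of gestation was sequenced in 8 libraries, AMB3 to AMB10, from 25 ng of RNA each with a strand-specific kit. The labels place no library in a maternal group, give no hour of collection, and leave unsaid whether any 2 libraries share a fetus. All libraries were therefore treated as unassigned: values are given library by library, and no group was compared with another.

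The clock is a loop of transcription and translation that runs in most cells. CLOCK, or its relative NPAS2, pairs with BMAL1 (listed here as ARNTL) and activates the PER and CRY genes, whose proteins return to the nucleus and inhibit that pair. In an interlocking loop, NR1D1 and NR1D2 (REV-ERB alpha and beta) repress ARNTL, and NPAS2 is another known target, while the ROR receptors act through the same DNA element and activate. DBP is switched on by the activator pair and drives output genes together with TEF and HLF, against the repressor NFIL3. In rodents the hippocampus holds such a clock, subordinate to the suprachiasmatic nucleus of the hypothalamus, and PER1 also responds to neuronal activity and to glucocorticoids.

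Total counts ran from 40404878 (AMB9) to 71648654 (AMB10), and mitochondrially encoded genes took 2.25% to 3.37% of the counts. Levels are in CPM (counts per 1000000 after edgeR's TMM scaling), and the range of a gene is its highest minus its lowest log2 CPM over the libraries. Markers set AMB3, AMB8 and AMB10 apart. All 3 cortical markers (CUX2, TBR1, MEF2C) had these as their 3 lowest libraries, and the summed level in CPM was 152 (AMB8), 172 (AMB10) and 419.6 (AMB3), where the others held 1400 to 2115. The 5 hippocampal markers (PROX1, FIBCD1, ZBTB20, CALB1, NEUROD1) summed to 716 CPM (AMB8), 679 (AMB10) and 225 (AMB3), and to 101 to 183 in the remaining 5 libraries. All libraries are labelled hippocampus, and all 5 hippocampal and all 3 cortical markers were detected in each of them. AMB8 and AMB10 were the 2 highest libraries for each hippocampal marker, while AMB3 was next for PROX1, FIBCD1 and NEUROD1 but not for ZBTB20 and CALB1. AMB3, AMB8 and AMB10 are also the baseline of the deposited log2 values, whose median over these 3 was 0 (tolerance 0.001) in every one of 15582 genes with more than 20 counts in each library, and the labels give no reason for that choice. For the members, the paired ratios, the list counts and most list genes named, values over the 5 other libraries are therefore given too. In bulk tissue, fewer cells of a type and less RNA per cell cannot be told apart.

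Of the 10 genes, 4 spanned at least 1 log2 unit between libraries: NR1D1, NPAS2, CRY2 and PER1. A share of 36.1% of all tested genes spanned at least 1. The median range of the members was 0.82 and that of all tested genes 0.77. At the other end, PER2 (0.35), CRY1 (0.36), CLOCK (0.49) and PER3 (0.52) were among the steadier genes, at percentiles 9.44, 9.94, 23.7 and 27.7 of all ranges.

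**Figure D1:**
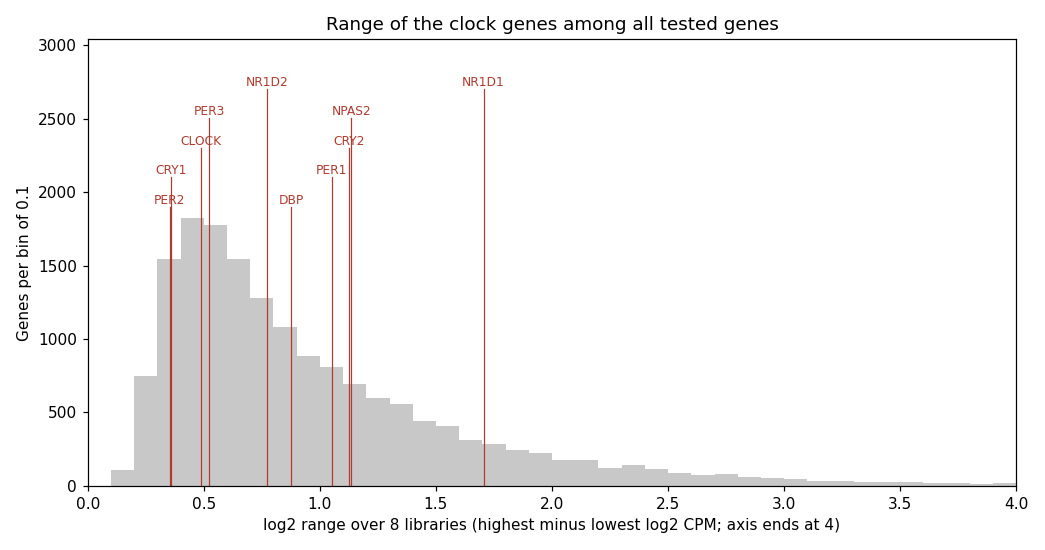
Histogram of the log2 range over 8 libraries (x axis, highest minus lowest log2 CPM) for the 16874 tested genes (y axis, genes per bin of 0.1), with a vertical line at each clock gene. The lines run from PER2 at 0.35 to NR1D1 at 1.71, and the axis ends at 4, beyond which further genes lie.

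The activator subunits differed from each other in how they varied. CLOCK (chromosome 3, 99578962 to 99699154), the usual partner of BMAL1, measured 74.9 CPM in AMB3, 71.7 in AMB4, 61.2 in AMB5, 64.9 in AMB6, 80.0 in AMB7, 57.0 in AMB8, 64.4 in AMB9 and 70.4 in AMB10. AMB7 was highest and AMB8 lowest, 1.40-fold apart, and 4 of 7 neighbouring Poisson intervals overlapped. AMB3 and AMB10 lay in its upper range and AMB8 at the bottom. NPAS2 (chromosome 14, 101817940 to 101993060), which can take the place of CLOCK and is prominent in forebrain, measured 69.8 CPM in AMB3, 108 in AMB4, 101 in AMB5, 112 in AMB6, 93.7 in AMB7, 54.6 in AMB8, 89.8 in AMB9 and 50.9 in AMB10. AMB10, AMB8 and AMB3 were its 3 lowest libraries, below 89.8 in the next, and AMB6 was 2.20-fold above AMB10. Over the 5 other libraries the range of NPAS2 shrank from 1.14 to 0.32, while that of CLOCK went from 0.49 to 0.39.

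Taken as a ratio of counts, which no scaling between libraries can move, NPAS2 over CLOCK was 0.723 in AMB10 (95% interval from counting error 0.692 to 0.754) and 1.72 in AMB6 (1.65 to 1.80). It was 0.931 in AMB3 and 0.958 in AMB8, and between 1.17 and 1.66 in AMB4, AMB5, AMB7 and AMB9. The counting intervals of AMB3, AMB8 and AMB10 all lay below those of the 5 others. Genes differ in length and the counts were not set per length, so the size of such a ratio says nothing of which protein was more abundant. Between libraries it differed 2.38-fold, and 1.47-fold without AMB3, AMB8 and AMB10. These ratios of paired genes were chosen after the values were seen.

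ARNTL, the partner of CLOCK and NPAS2, shared its 3 lowest libraries with NPAS2. It measured 34.0 CPM in AMB3, 63.8 in AMB4, 52.8 in AMB5, 53.8 in AMB6, 76.4 in AMB7, 33.0 in AMB8, 52.2 in AMB9 and 35.7 in AMB10, with AMB8, AMB3 and AMB10 lowest and AMB7 highest, a range of 1.21 (0.55 over the 5 others). ARNTL2, its paralog, ran from 8.43 CPM in AMB3 to 16.3 in AMB7, a range of 0.95, with no split between AMB3, AMB8, AMB10 and the rest.

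**Figure D2:**
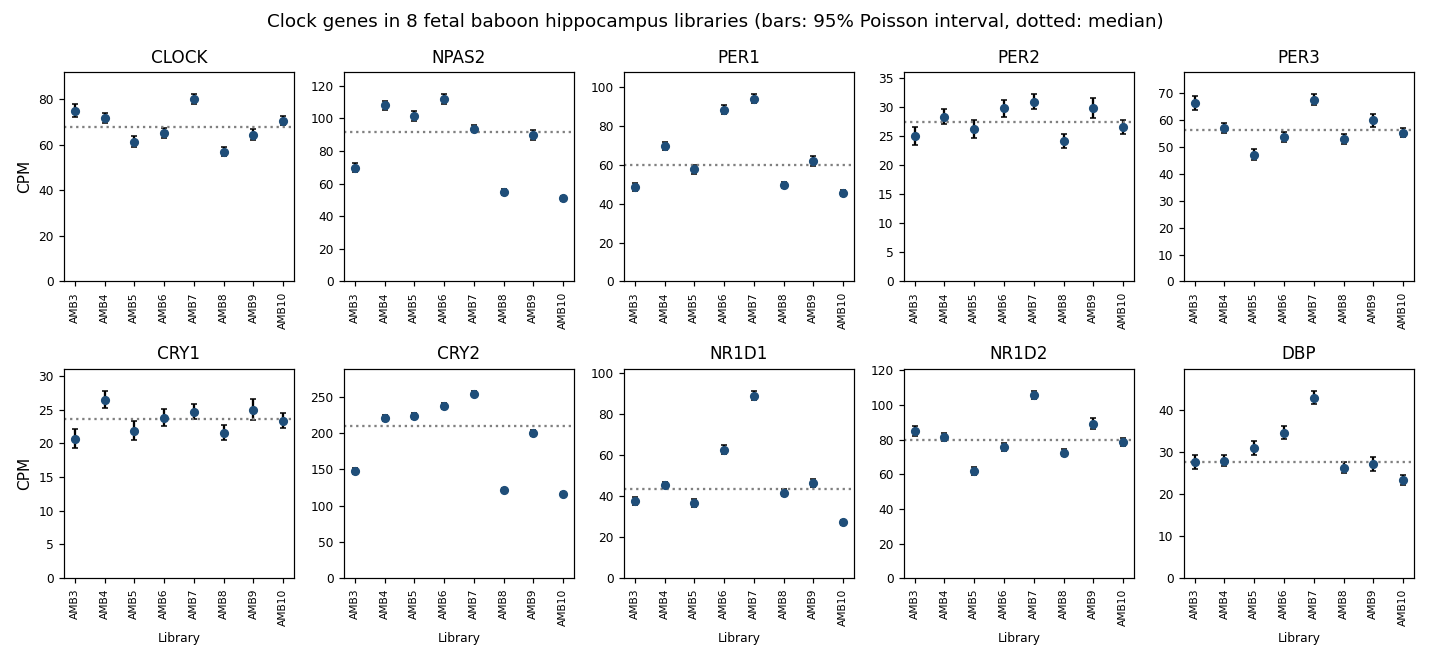
Level of each clock gene in CPM (y axis, from 0) in the 8 libraries (x axis), with the exact 95% Poisson interval of the count as bars and the median over libraries as a dotted line. NPAS2 and CRY2 show AMB3, AMB8 and AMB10 below the other 5 libraries, and NR1D1, NR1D2 and DBP show AMB7 on top.

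Among the period genes PER1 varied and PER2 and PER3 varied less. PER1 (chromosome 17, 7682940 to 7698959), known for its rapid induction by stimuli, measured 48.4 CPM in AMB3, 69.6 in AMB4, 57.6 in AMB5, 88.3 in AMB6, 93.9 in AMB7, 49.5 in AMB8, 61.9 in AMB9 and 45.3 in AMB10. AMB7 and AMB6 stood above the others, AMB10, AMB3 and AMB8 were lowest, and the highest was 2.07-fold the lowest. The range of 1.05 was below 1 without AMB10 (0.96) and was 0.70 without AMB3, AMB8 and AMB10.

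PER2 (chromosome 10, 122093525 to 122149789), whose protein is a rate-setting part of the repressor complex, measured 25.0 CPM in AMB3, 28.4 in AMB4, 26.2 in AMB5, 29.8 in AMB6, 30.9 in AMB7, 24.2 in AMB8, 29.9 in AMB9 and 26.6 in AMB10. Ordered by level, each library's 95% Poisson interval overlapped that of the next in 7 of 7 neighbouring pairs, so no single step stood clear of counting error. The ends did: the interval was 23.0 to 25.4 CPM in AMB8 and 29.6 to 32.2 in AMB7. PER3 (chromosome 1, 6639379 to 6703744), the member of the family least needed for rhythm, measured 66.4 CPM in AMB3, 57.1 in AMB4, 47.1 in AMB5, 53.7 in AMB6, 67.7 in AMB7, 52.9 in AMB8, 60.0 in AMB9 and 55.3 in AMB10. AMB5 was its lowest library, and AMB7 and AMB3 its highest. Its range of 0.52 was 0.35 without AMB5.

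The level of PER1 relative to its paralogs differed between libraries. PER1 over PER2 in counts was 1.70 in AMB10, 1.93 in AMB3, 2.05 in AMB8 and 2.07 in AMB9. It was 2.20 in AMB5, 2.46 in AMB4, 2.97 in AMB6 and 3.04 in AMB7, 1.79-fold from lowest to highest and 1.47-fold over the 5 libraries without AMB3, AMB8 and AMB10. PER1 over PER3 differed 2.26-fold, from 0.729 in AMB3 to 1.65 in AMB6, with AMB10 and AMB8 next to AMB3 at the low end, and 1.60-fold over the 5 others. The ratios of AMB6 and AMB7 had counting intervals above those of every other library for both quotients.

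Of the cryptochromes, CRY1 was steady and CRY2 set libraries apart. CRY1 (chromosome 9, 101311860 to 101418368), the stronger repressor of the pair, measured 20.6 CPM in AMB3, 26.5 in AMB4, 21.9 in AMB5, 23.8 in AMB6, 24.7 in AMB7, 21.6 in AMB8, 24.9 in AMB9 and 23.4 in AMB10. All 7 of 7 neighbouring intervals overlapped, but those of the ends did not: 19.3 to 22.1 CPM in AMB3 and 25.2 to 27.8 in AMB4. CRY2 (chromosome 12, 103698362 to 103735363), its paralog, measured 147 CPM in AMB3, 221 in AMB4, 223 in AMB5, 238 in AMB6, 254 in AMB7, 122 in AMB8, 199.9 in AMB9 and 116 in AMB10. AMB10, AMB8 and AMB3 lay at 116 to 147 CPM and the 5 others at 199.9 to 254, 2.18-fold from end to end, and only 1 of 7 neighbouring intervals overlapped. Without AMB3, AMB8 and AMB10 the range of CRY2 was 0.35 in place of 1.13. CRY2 over CRY1 in counts was 4.98 (AMB10), 5.65 (AMB8) and 7.14 (AMB3), and ran from 8.02 in AMB9 to 10.3 in AMB7 in the others, 2.06-fold over all libraries and 1.28-fold over those 5. Counting intervals of AMB3 (6.64 to 7.67) and AMB9 (7.50 to 8.56) overlapped, so that quotient did not separate the 3 libraries fully.

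PER1, CRY2 and NPAS2 thus had AMB3, AMB8 and AMB10 as their 3 lowest libraries, 3 of 10 members against 9.87% of all tested genes. The cortical marker sum was lowest in the same 3 libraries. FIBCD1, a marker of the CA fields, had 400.1 CPM (AMB8), 367 (AMB10) and 84.1 (AMB3), where the others had 9.01 to 76.9. The part of tissue composition in these 3 genes was not tested. Without the 3 libraries only NR1D1 kept a range of at least 1, which is 1 of 10 members, against 19.8% of all tested genes over the same 5 libraries. Over those 5 the ranges of PER2, PER3 and CRY1 were 0.24, 0.52 and 0.27, and those of NR1D2 and DBP 0.77 and 0.66. Leaving out only AMB3, whose title ends in L1000 where the others end in S and a number, kept the count at 4 and the median range at 0.82. Without AMB3, AMB8 and AMB10 the median range was 0.45 for the members and 0.54 for all tested genes.

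**Figure D3:**
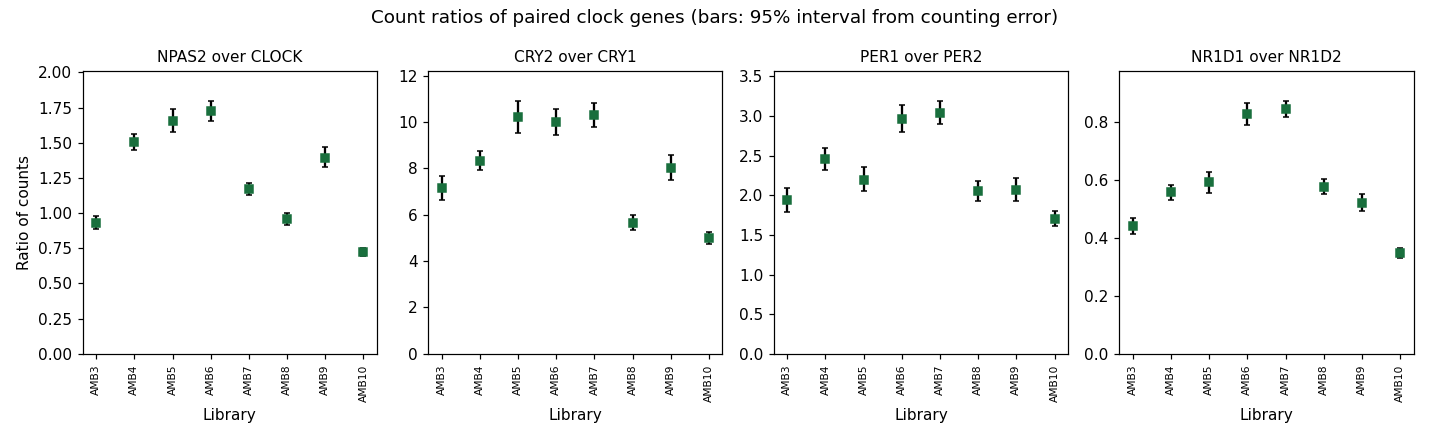
Ratio of estimated counts of 2 related clock genes (y axis, from 0) in each library (x axis), with 95% intervals from counting error as bars. NPAS2 over CLOCK lies between 0.723 and 0.958 in AMB3, AMB8 and AMB10 and at 1.17 or more in the others, and NR1D1 over NR1D2 is highest in AMB6 and AMB7.

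Of the REV-ERB genes, NR1D1 had the widest range of all members and NR1D2 a range at the middle of all genes (percentile 50.3). NR1D1 (chromosome 17, 47196661 to 47204920), a haem-sensing repressor, measured 37.5 CPM in AMB3, 45.5 in AMB4, 36.6 in AMB5, 62.8 in AMB6, 89.2 in AMB7, 41.8 in AMB8, 46.5 in AMB9 and 27.3 in AMB10. AMB7 stood alone at the top, followed by AMB6, and AMB10 alone at the bottom, and the ends were 3.26-fold apart. The range of 1.71 lay at percentile 86.7 of all genes and went to 1.20 without AMB7, its largest loss from leaving out 1 library. Without AMB3, AMB8 and AMB10 the range of NR1D1 was 1.28, the same as without AMB10 alone.

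NR1D2 (chromosome 2, 170062543 to 170113492), the second REV-ERB, measured 85.2 CPM in AMB3, 81.6 in AMB4, 61.9 in AMB5, 75.8 in AMB6, 106 in AMB7, 72.5 in AMB8, 89.4 in AMB9 and 78.6 in AMB10. AMB7 was again highest, but the lowest was AMB5 and AMB10 lay near the median. NR1D1 over NR1D2 in counts was 0.348 in AMB10 and 0.440 in AMB3. It lay from 0.520 in AMB9 to 0.591 in AMB5 in 4 libraries, and was 0.828 in AMB6 and 0.844 in AMB7. That is a 2.43-fold span, and 1.62-fold without AMB3, AMB8 and AMB10.

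The tested ROR genes, which oppose the REV-ERBs at the same element, had wider ranges than any member. RORB measured 21.3 CPM in AMB3, 176 in AMB4, 98.4 in AMB5, 129 in AMB6, 268 in AMB7, 17.4 in AMB8, 166 in AMB9 and 21.9 in AMB10. AMB3, AMB8 and AMB10 stood at 17.4 to 21.9 CPM and the rest at 98.4 to 268, a range of 3.94 over all and 1.45 over the 5 others. The cortical marker sum was also lowest in AMB3, AMB8 and AMB10 and highest in AMB7, and the part of tissue makeup in RORB was not tested. RORA measured 25.5 CPM in AMB3, 30.7 in AMB4, 13.4 in AMB5, 30.8 in AMB6, 46.4 in AMB7, 18.2 in AMB8, 31.4 in AMB9 and 20.9 in AMB10, with AMB5 lowest and AMB7 highest, a range of 1.79 that went to 1.23 without AMB7. RORB over RORA was at most 1.05 in AMB3, AMB8 and AMB10 and at least 4.18 in the others, 8.81-fold over all and 1.75-fold over those 5.

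DBP (chromosome 20, 6457 to 14352), a factor with a strong daily rhythm in many tissues, measured 27.5 CPM in AMB3, 27.8 in AMB4, 30.9 in AMB5, 34.5 in AMB6, 42.9 in AMB7, 26.2 in AMB8, 27.1 in AMB9 and 23.3 in AMB10. AMB7, AMB6 and AMB5 were highest, and 5 libraries lay between 23.3 and 27.8. Its range of 0.88 rested on AMB7, since it was 0.56 without that library. The factors that share its D-box element had other highest libraries. HLF ran from 117 CPM in AMB8 to 176 in AMB5, a range of 0.59. TEF measured 118 CPM in AMB3, 94.7 in AMB4, 87.6 in AMB5, 92.1 in AMB6, 134 in AMB7, 165 in AMB8, 80.5 in AMB9 and 145 in AMB10, with AMB8 and AMB10 highest and a range of 1.04 (0.74 without AMB3, AMB8 and AMB10). NFIL3, the repressor at that element, measured 18.4 CPM in AMB3, 29.4 in AMB4, 31.7 in AMB5, 29.1 in AMB6, 32.8 in AMB7, 16.2 in AMB8, 34.1 in AMB9 and 13.5 in AMB10, with AMB10, AMB8 and AMB3 lowest and AMB9 highest. Over the 5 other libraries NFIL3 spanned only 0.23 in place of 1.33.

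Across all 10 members, AMB7 was the high library. It held the highest value of 8 of 10 members, against 15.5% of all tested genes, with CRY1 highest in AMB4 and NPAS2 in AMB6. All 10 members lay above their own median in AMB7, against 48.8% of all tested genes, and all 10 did so in AMB4, against 50.2%. In AMB4 the excess was small, with a median of 0.07 log2 units over the members and 0.008 for DBP. All 10 lay at or below their median in AMB8, where 47.5% of all tested genes did. AMB10 held the lowest value of 5 of 10 members (PER1, CRY2, NPAS2, NR1D1 and DBP), against 15.9% of all tested genes. The median deviation over the members was 0.27 log2 units in AMB7 and between -0.16 and 0.15 in the other libraries. AMB7 was a deep library, with 70629544 counts, the lowest mitochondrial share, 2.25%, and the highest cortical marker sum. It also had the lowest summed levels of the astrocyte markers (1472 CPM, against 1782 to 3506 elsewhere), the oligodendrocyte precursor markers (55.9 CPM, against 80.6 to 120.1) and the endothelial markers (91.7 CPM, against 100.1 to 131). Its meningeal sum was near the top, at 325 CPM where all libraries ran from 52.1 to 325, and its oligodendrocyte sum was 1153 CPM. AMB10, a low library for these genes, was the deepest of all, with 71648654 counts. AMB10 also had the highest sums of the astrocyte (3506 CPM), oligodendrocyte precursor (120.1 CPM) and oligodendrocyte markers (4107 CPM, where the lowest library had 635). The part of depth, tissue makeup or RNA quality in the AMB7 and AMB10 values was not tested.

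**Figure D4:**
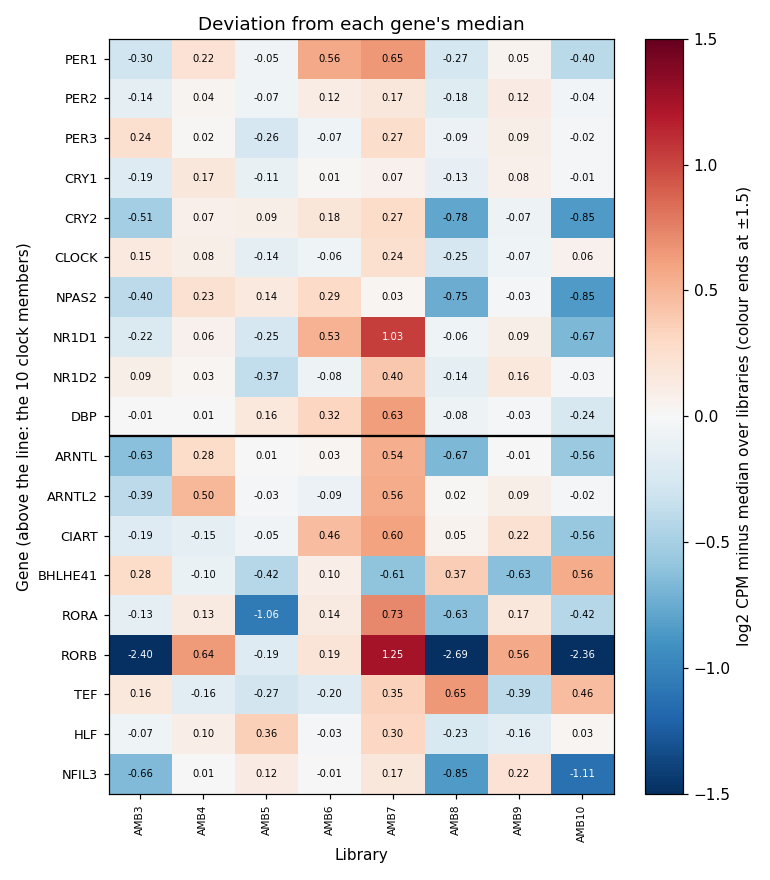
Deviation of log2 CPM from each gene's median over the libraries (colour and printed value, log2 units) for the 10 clock members above the line and the 9 tested partner, repressor, ROR and leucine zipper genes below it, by library. AMB7 is at or above the median for every member, and the strongest blue cells are RORB in AMB3, AMB8 and AMB10.

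Of the clock genes, 8 pairs with a known link were related over the 8 libraries by exact two-sided permutation over all 40320 pairings. The pairs were chosen with earlier results of these data known, and the adjustment over 8 pairs does not cover that choice. NR1D1 and DBP, both driven by the activator pair, had Pearson's r of 0.91 (exact p = 0.0027, adjusted 0.0216 over 8 pairs) and Spearman's rho of 0.64 (exact p = 0.0962). PER1 and PER2 had r of 0.84 (exact p = 0.0109, adjusted 0.0437) and rho of 0.76 (exact p = 0.0368). For neither pair did the rank correlation pass after adjustment, at permutation p of 0.307 and 0.294. Without AMB7 and AMB10, the libraries farthest from the median of NR1D1, r of NR1D1 and DBP was 0.59. Without AMB6 and AMB7 that of PER1 and PER2 was 0.70. The call of PER1 and PER2 was lost when any of 7 libraries was left out, with r between 0.78 and 0.89 in those 7 settings of 7 points each. The call of NR1D1 and DBP was lost without AMB6, AMB7 or AMB10, with r between 0.77 and 0.90. In that pair AMB6, AMB7 and AMB10 hold the ends of the order.

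The remaining 6 pairs did not pass. NR1D1 and ARNTL, a repressor and its target, had r of 0.74 (exact p = 0.0311, adjusted 0.0829), a positive value, and 0.42 without AMB7 and AMB10. NR1D1 with NPAS2, also a repressor and its target, had r of 0.59 (exact p = 0.124, adjusted 0.198). NR1D1 with NR1D2 had r of 0.59 (exact p = 0.12, adjusted 0.198). CRY1 with CRY2 had r of 0.54 (exact p = 0.172, adjusted 0.23). CLOCK with NPAS2 had r of 0.14 (exact p = 0.732, adjusted 0.732), and PER3 with DBP 0.29 (exact p = 0.489, adjusted 0.559). Spearman's rho of the 6 pairs lay between 0.10 and 0.62 (exact p from 0.115 to 0.84, adjusted from 0.307 to 0.84). Without the 2 libraries farthest from the median on the x axis, r was 0.47 for NR1D1 with NPAS2, 0.24 for NR1D1 with NR1D2, 0.46 for CRY1 with CRY2, -0.50 for CLOCK with NPAS2 and -0.11 for PER3 with DBP. With 8 libraries, these missed thresholds do not show that the genes of a pair vary apart. AMB3, AMB8 and AMB10 are too few for a correlation of their own, as are the other 5.

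**Figure D5:**
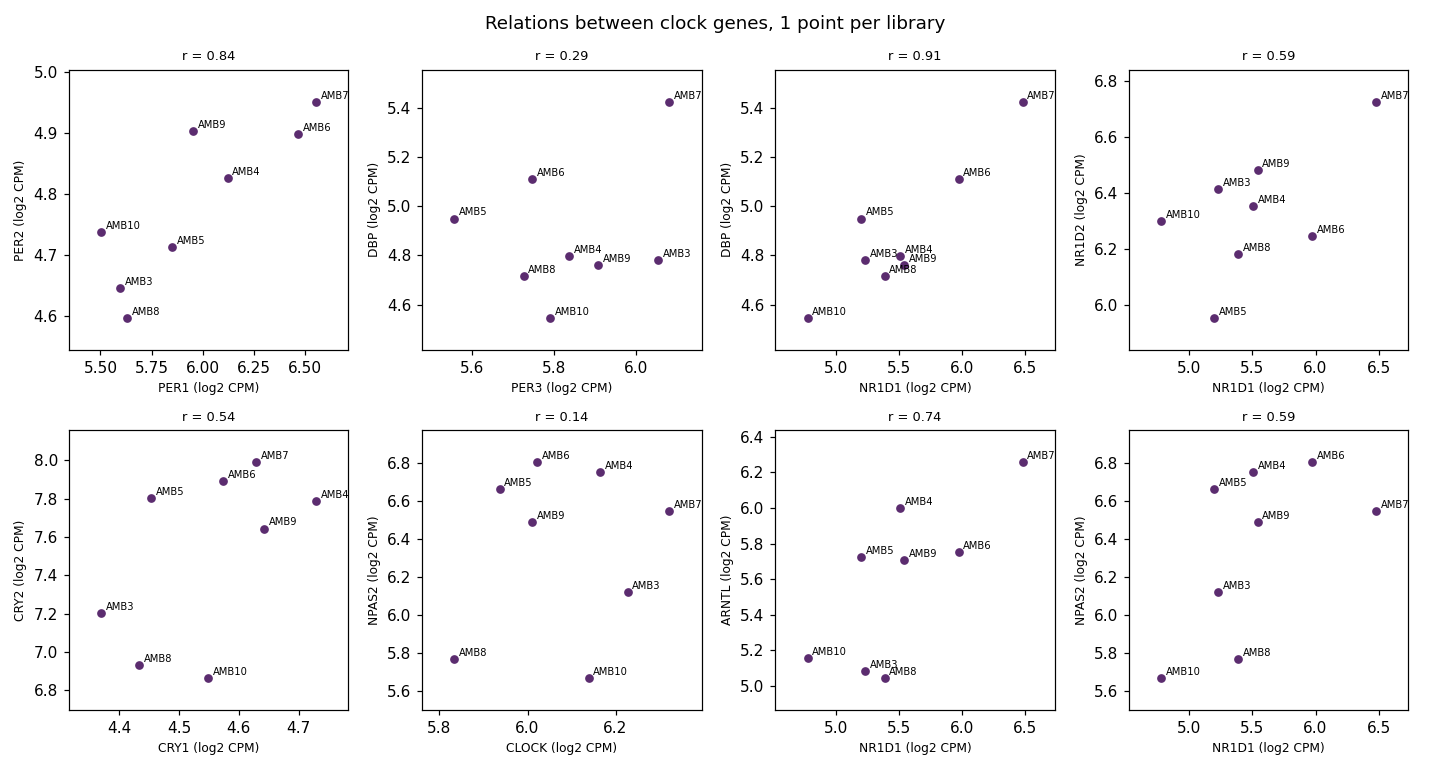
Log2 CPM of the 8 pairs of clock genes (x and y axes as named in each panel), 1 labelled point per library, with Pearson's r above each panel. In the panel of NR1D1 and DBP, AMB7 and AMB6 lie at the upper right and AMB10 at the lower left, with the other 5 libraries close together in NR1D1.

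The wider clock machinery had a narrower median range than the members. Of 47 listed genes, 43 had a row under their symbol, all 43 were tested and 13 spanned at least 1 log2 unit, where 36.1% of all tested genes did, with a median range of 0.64. Over the 5 libraries without AMB3, AMB8 and AMB10, 4 of 43 did (RORA, RORB, TIMELESS and WEE1), against 19.8% of all tested genes, with a median range of 0.42. BHLHE40, CSNK1E, CSNK2B and FBXL21 are not analysed here. Among 11 tested kinases and phosphatases that act on clock proteins, only PRKAA2, a catalytic subunit of AMP-activated kinase, spanned 1 (1.30, and 0.70 without AMB8). CSNK1D, the casein kinase that sets the stability of the PER proteins, lay between 137 and 153 CPM, a range of 0.16. Of 4 ubiquitin ligase and protease genes, FBXW7 alone did: it ran from 159 CPM in AMB8 to 385 in AMB9, with AMB8, AMB10 and AMB3 lowest and a range of 0.17 over the 5 others.

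Among further repressors, both tested genes spanned at least 1 log2 unit, in opposite directions across libraries. CIART, a repressor of the activator pair, ran from 4.84 CPM in AMB10 to 10.9 in AMB7, with AMB6 next, the same ends as PER1 and NR1D1. Its range was 1.16, 0.79 without AMB10, and 0.75 without AMB3, AMB8 and AMB10. BHLHE41, another repressor of that pair, went the other way, from 12.9 CPM in AMB9 and 13.2 in AMB7 to 29.6 in AMB10, a range of 1.19 (0.73 over the 5 others). Among 12 cofactors only TIMELESS spanned 1 (1.51), at 1.33 to 3.85 CPM, and 0.89 without AMB7. Among 8 outputs WEE1, a kinase that delays mitosis, spanned 1.79 (1.11 without AMB7). PROK2, a secreted peptide, spanned 1.15 (0.75 without AMB3, AMB8 and AMB10). It was low, at 1.78 to 3.98 CPM, and 7 of 7 neighbouring intervals overlapped. PPARGC1A, a metabolic coactivator, spanned 1.06 (0.74 without AMB3). WEE1 was lowest in AMB7 and highest in AMB10, opposite to PER1. Of the wider list, 10 of 43 tested genes had AMB3, AMB8 and AMB10 as their 3 lowest libraries, among them ARNTL, RORB, NFIL3 and FBXW7, beside the 9.87% of all tested genes.

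The list of activity, glucocorticoid and melatonin genes, chosen for inputs to the clock, had a wider median range. It also holds genes induced by such signals, such as FKBP5 and SGK1. Of 19 listed, 17 were tested and 9 spanned at least 1 log2 unit, against 36.1% of all tested genes, with a median range of 1.11. Over the 5 libraries without AMB3, AMB8 and AMB10 only FOSB and NR3C2 did, 2 of 17 against 19.8% of all tested genes, with a median range of 0.57. Of 10 activity-regulated genes, 7 had AMB3, AMB8 and AMB10 as their 3 lowest libraries, where 9.87% of all tested genes did. FOSB, an immediate early transcription factor, ran from 2.03 CPM in AMB8 to 10.7 in AMB6, a range of 2.38 (1.31 over the 5 libraries without AMB3, AMB8 and AMB10). NR4A1, an immediate early nuclear receptor, ran from 13.6 CPM in AMB10 to 59.3 in AMB5, a range of 2.13 (0.36 over those 5). FOS was lowest in AMB10, at 10.8 CPM against 22.02 or more elsewhere, and its range of 1.98 was 0.96 without that library and 0.56 over those 5. EGR1 spanned 1.39 (0.89 over those 5), and ARC, lowest in AMB3, spanned 1.47 (0.88 without AMB3, 0.57 over those 5). SIK1, a kinase that limits the response of the clock to light, was instead highest in AMB3, at 20.6 CPM. Its range of 1.42 was 0.80 without AMB3. FOS, NR4A1 and DUSP1 shared their lowest library, AMB10, with PER1, and AMB10 was lowest for 15.9% of all tested genes. EGR1, ARC and JUNB were lowest in AMB3, FOSB in AMB8, SIK1 in AMB4, CREB1 in AMB6 and CREM in AMB7. The highest library of PER1, AMB7, was the highest of none of the 10 activity-regulated genes.

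Of 7 glucocorticoid genes, NR3C2, FKBP5 and SGK1 spanned at least 1, and all 3 were highest in AMB8 or AMB10. NR3C2, the mineralocorticoid receptor, measured 65.2 CPM in AMB3, 35.7 in AMB4, 13.6 in AMB5, 15.8 in AMB6, 16.8 in AMB7, 118 in AMB8, 24.4 in AMB9 and 121 in AMB10. AMB10, AMB8 and AMB3 were highest, a range of 3.16, and 1.39 over the 5 others. FKBP5, a co-chaperone induced by glucocorticoids, measured 13.5 CPM in AMB3, 5.70 in AMB4, 5.07 in AMB5, 5.24 in AMB6, 6.05 in AMB7, 19.2 in AMB8, 5.32 in AMB9 and 18.3 in AMB10, with the same 3 libraries on top and a range of 1.92, and 0.25 over the 5 others. SGK1, a kinase induced by glucocorticoids, was highest in AMB8 and AMB10 too, with a range of 1.11 (0.48 over the 5 others), while NR3C1, the glucocorticoid receptor, spanned 0.68. KLF9, TSC22D3 and ZBTB16, also on this list, were not highest in AMB8 or AMB10. KLF9 and TSC22D3 were lowest in AMB3 and highest in AMB7, with ranges of 0.74 and 0.41. ZBTB16 was lowest in AMB8 and highest in AMB4, with a range of 0.61. The melatonin receptor genes MTNR1A and MTNR1B were at 0.197 CPM or less in every library and did not pass the filter. FIBCD1 and PROX1, markers of hippocampal fields, had the same 2 highest libraries as NR3C2, AMB8 and AMB10, and the part of tissue makeup was not tested.

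Markers of the hypothalamus were near the limit of detection, apart from VIP, a peptide that cortical and hippocampal interneurons also make, at 9.12 to 17.9 CPM. AVP was at 0.886 CPM or less, NMS at 0.185 or less, SIX3 at 0.461 or less and LHX1 at 0.391 or less. SIX6 had a count of 0 in every library, which allows a level of up to 0.0756 CPM in the shallowest (3 counts, for counting error only).

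The genes whose pattern was most like that of each member over the 8 libraries were taken from 12997 tested genes with a symbol and a median count of at least 50. For PER1 they were HDAC10, ZYX and KMT2B, each with r of 0.99, and for CRY2 they were MAPK13, SLC22A23 and RIMS3, each also at 0.99. For NPAS2 they were SHB (0.98), PRDM11 (0.98) and CRHR1 (0.97). For NR1D1 they were ANKMY1, PDZD7 and NRG2, each at 0.98. The 4 members of widest range had the most such genes: r reached 0.9 in 465 genes for CRY2, 278 for NPAS2, 161 for PER1 and 97 for NR1D1. None of the genes named for these 4 members is on the clock or input lists.

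For the steadier members fewer genes came close, with r of at least 0.9 in 73 genes for PER2, 53 for NR1D2, 52 for CRY1, 42 for PER3, 36 for DBP and 19 for CLOCK. The nearest were ADARB2, PCBD2 and BCL2 for PER2 (0.98, 0.98 and 0.96), and CCDC117, THSD4 and PPP4R3B for PER3 (0.99, 0.99 and 0.98). CRY1 had FRMD4A, EP300 and MAST4 (0.97, 0.96 and 0.96), of which EP300 is a coactivator on the wider clock list, and CLOCK had PIP5K1B, ETNK1 and OLFML3 (0.96, 0.95 and 0.95). NR1D2 had JMY, HNRNPA3 and TENT4B (0.98, 0.98 and 0.97), and DBP had ARHGEF17, RCOR2 and BRF2 (0.96, 0.95 and 0.95). The most opposite genes were SCPEP1 for PER1 (-0.98), NCBP2 for PER2 (-0.97), PMF1 for PER3 (-0.96), HSD17B10 for CRY1 (-0.97) and NPY2R for CRY2 (-0.99). They were MECR for CLOCK (-0.97), ADAT2 for NPAS2 (-0.997), GPX7 for NR1D1 (-0.99), POLR2L for NR1D2 (-0.97) and COQ10B for DBP (-0.98). Extreme values are bound to occur among so many genes over 8 points. The 8 libraries also differ in depth and in marker sums, and the r values are given as a description.

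Gene models that overlap a member held few counts of their own, and member reads within an overlap were not told apart. PER1, PER2 and NPAS2 each overlap a non-coding gene on the other strand, with 0 to 4, 0, and 17 to 103 counts per library. PER3 shares 115 bases with UTS2, which had 0 to 5 counts. The closest coding neighbours that do not overlap were CA11, 140 bases from DBP with 2737 to 7290 counts, and THRA, 144 bases from NR1D1 with 19605 to 38345 counts. Whether counting used strand is not given in the sources used here, so an exchange of reads between these neighbours was not tested.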

How the data were processed

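Bulk RNA-seq of 8 hippocampus libraries was analysed from a table of estimated counts per RefSeq gene and log2 values, both as deposited by the authors. Of the raw values above 0, 22.5% to 26.7% were whole (tolerance 0.001). The log2 values deposited by the authors are the logarithm of the raw value after division by a library factor, less the gene's median over AMB3, AMB8 and AMB10 (largest deviation 1.7e-06 over 15582 genes with more than 20 counts everywhere). DESeq is named per the submitters' processing notes. The genome build was not given in the sources used here, nor the aligner or counter.

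Estimated counts were rounded. Genes were kept by filterByExpr (edgeR 4.0.16, R 4.3.3; minimum count 10), scaled with edgeR's TMM factors, and given as CPM or log2 CPM (prior count 2). Poisson intervals (95%) cover counting error only. With no groups in the labels, no differential test was run. The permutation p-values treat the 8 libraries as exchangeable. The labels do not establish this, since they leave unsaid whether libraries share a fetus, and the p-values describe these libraries only. Pairs of genes were related with the Pearson and Spearman coefficients (scipy 1.17.1) with Benjamini-Hochberg adjustment at 0.05. The code was tested on simulated data.

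The members, lists, markers and the 8 pairs were chosen with earlier results of these data known, and 3 listed genes are not reported here and were left out of the lists' counts and sums. Genes named were all members, list genes with a range of at least 1, a few listed beforehand whatever their range, and for each member the 3 genes of highest r and the 1 of lowest. Some other list genes are named for comparison. Alternatives were DESeq2 1.42.0 size factors, total counts, the deposited log2 values, a prior count of 0.5, unrounded counts, no filter, and each library left out.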

Additional observations from a re-analysis of the deposited data

Results flagged for a closer look

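Of 68 clock, wider clock and input genes, 3 had 1 library far from the other 7, all in AMB5, by a gap to the nearest library that exceeded Dixon's 95% critical share of the whole range. Chance marks about 1 gene in 20, and 3 of 68 does not exceed that rate. The share of all tested genes marked in this way was not computed. SIRT1, a deacetylase that binds the activator pair, was lowest in AMB5 at 17.1 CPM against 23.6 in the next library, a gap of 0.779 of its range. CSNK2A2, a catalytic subunit of casein kinase, was highest in AMB5 at 32.3 CPM against 27.1, a gap of 0.528. PPP1CA, a catalytic subunit of protein phosphatase, was highest in AMB5 at 104.5 CPM against 90.2, a gap of 0.55. None of the 10 clock members was marked in this way.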

How the results depend on the processing

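Under another scaling (DESeq2 size factors or total counts), the deposited log2 values, a prior count of 0.5 or unrounded counts, 4 of 10 members spanned at least 1 log2 unit, and the median range lay between 0.82 and 0.87. Neither scaling moved the median of all genes in a library by more than 0.07 log2 units. Leaving out 1 library at a time gave 3 or 4 members and a median range of 0.55 (without AMB7) to 0.82. In a setting chosen after seeing the data, without AMB3, AMB8 and AMB10, 1 member spanned at least 1 and the median range was 0.45. The share of all tested genes that spanned at least 1 was 36.1%, 54.2% with no filter on low counts and 19.8% without those 3 libraries. Of the pairs, 2 passed under all 8 libraries, and 0 to 2 with 1 library left out: 0 without AMB6, AMB7 or AMB10, and 2 without AMB9. With 1 library left out, r of PER3 and DBP lay between -0.32 (without AMB7) and 0.47, and r of CLOCK and NPAS2 between -0.29 (without AMB8) and 0.30; neither passed in any setting. Promoter motifs and levels per length were not run, nor were correlations over 5 libraries. No paired analysis was possible because the labels give neither groups nor replicate numbers. Counts of 837 or more keep counting error small beside the ranges of the 4 widest members. For PER2 and CRY1 all neighbouring libraries overlapped within counting error, but the intervals of their highest and lowest libraries did not overlap.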
